A study of Homo sapiens with 6 samples.

Results

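The genes described here encode 10 chaperones and folding enzymes of the endoplasmic reticulum (ER): HSPA5, HSP90B1, CALR, CANX, PDIA3, PDIA4, PDIA6, P4HB, HYOU1 and SDF2L1. They were chosen by gene name, and each matched 1 row among the 30483 genes measured. Their transcripts were counted by RNA sequencing in A549, an established cell line of human lung adenocarcinoma, grown in medium with serum. In 1 group of 3 libraries the cells had been given 5 µM anlotinib for 48 h, and in the other group of 3 they had been given the solvent DMSO. The drug blocks receptor tyrosine kinases, including those for VEGF, FGF and PDGF, and is taken by mouth. The series set out to find pathways through which the drug acts on the tumor stroma, but the libraries come from tumor cells alone, of a single line at a single dose and time. The labels do not say whether each replicate was its own culture, and p-values therefore reflect variation among these libraries alone, part or all of which may be technical. In bulk libraries a loss of cells of one kind and a lower level of RNA per cell cannot be told apart.

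Proteins that enter the secretory pathway fold in the ER with the help of these chaperones. When unfolded proteins accumulate there, the sensors ATF6, IRE1 (encoded by ERN1) and PERK (encoded by EIF2AK3) start the unfolded protein response. Active ATF6 and spliced XBP1 switch on chaperone genes through promoter elements named ERSE, while PERK raises translation of ATF4, which switches on genes of amino acid supply and the transcription factor CHOP (encoded by DDIT3). In the textbook response to ER stress the chaperone genes and the ATF4 branch rise together.

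After anlotinib, 8 of the 10 chaperone transcripts fell and 0 rose, where 12.7% of all 15734 genes tested fell (limma, Benjamini-Hochberg adjusted p under 0.05). In percent, taken from the log2 fold change of the limma fit, PDIA4 fell by 42.7%, CALR fell by 42.1% and SDF2L1 fell by 35.2%. HYOU1 fell by 22.7% and HSPA5 fell by 18.9%, with PDIA6, HSP90B1 and PDIA3 between them. CANX and P4HB did not pass. The median log2 fold change was -0.36 over the 10 members and -0.02 over all genes tested. For 8 members every anlotinib library lay below every DMSO library, which held for 21.4% of genes tested. Leaving out single libraries moved the number that fell over a range of 3 to 9. It was 5 when DMSO replicate 1 was left out (8.02% of all genes fell), 4 for DMSO replicate 2 (7.6%) and 3 for DMSO replicate 3 (7.78%). It was 9 for anlotinib replicate 1 (20.4%), 3 for anlotinib replicate 2 (7.04%) and 7 for anlotinib replicate 3 (11.9%). With no filter on low values it was 6 (5.77%). A minimum mean of 1 (7.87%) or of 50 (15.8%) and scaling by library totals (9.86%) left it at 8. The authors' deposited table also has 8 members lower, among 5.83% of genes. PDIA4, CALR and SDF2L1 passed in all 18 alternative settings that were run.

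**Figure D1:**
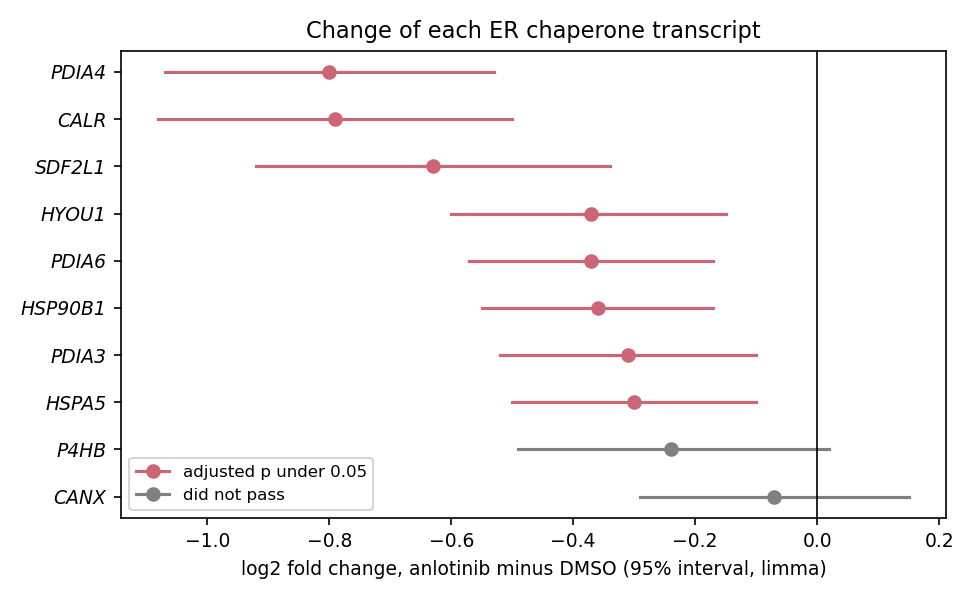
Change of each ER chaperone transcript, as the log2 fold change of anlotinib against DMSO (x axis) with its 95% interval from limma, for 3 libraries per group. Points in red passed at an adjusted p under 0.05 and those in grey did not. PDIA4 (-0.80) and CALR (-0.79) lie farthest from 0, and the intervals of P4HB and CANX include 0.

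The libraries held 13886120 to 15386107 reads in genes, so that counting error is small for these abundant transcripts, and 1 read was worth 0.887 to 1.07 normalized counts. The labelled cells were checked against markers. Of 8 epithelial and A549 markers tested, 2 fell and 2 rose, where 12.7% of all genes tested fell and 10.5% rose. KRT7, KRT8, KRT18, AKR1B10, AKR1C2 and ALDH1A1 stood at 5591 to 64105 normalized counts in every library, but KRT7 fell from a mean of 43173 to 21450 and ALDH1A1 from 62777 to 43592 (limma adjusted p = 3.54e-04 and 0.0159). KRT19, at 137 to 170 with DMSO, rose by 1.28 on the log2 scale, and CDH1, at 311 to 451, rose by 0.53 (adjusted p = 1.86e-04 and 0.0171). The calls of ALDH1A1 and CDH1 were lost without anlotinib replicate 2, among others (0.0983 and 0.0611). The epithelial surface marker EPCAM was near 0, at 4.0 to 11.5. The part of these marker changes in the chaperone result was not tested. Of 10 markers of blood, endothelium, fibroblasts, nerve and liver found in the table, 9 stayed at 12.4 or less in every library, PTPRC, PECAM1 and ALB among them, and RBFOX3 stood at 131 to 192. The anlotinib libraries were less alike than the DMSO libraries. Anlotinib replicate 1 lay nearest to DMSO on the first principal component. The number of genes with at least 1 read was 24594, 25881 and 27183 in anlotinib replicates 1, 2 and 3, against 23865 to 23993 with DMSO.

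Some of the members are known for ER stress elements in their promoters, which are shown here for the 6 in which a search found them. An ERSE has the letters CCAAT and CCACG with any 9 bases between them, and the related ERSE-II has ATTGG and CCACG with any 1 base between them. Promoters of 300 bases, from 250 before to 50 after the start site, were taken from RefSeq (GRCh38.p14) for 9 members; PDIA3 was not matched. On either strand, the full ERSE letters occurred in 22 of 27305 promoters (0.0806%), 4 of them those of HSPA5, HSP90B1, CALR and CANX. ERSE-II occurred in 15 promoters (0.0549%), including those of HYOU1 and SDF2L1. The elements read as follows, 5′ to 3′ on the strand that matches, with the fixed letters in capitals and the spacer in lower case.
HSPA5: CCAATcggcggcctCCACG
HSP90B1 distal: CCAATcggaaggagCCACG
HSP90B1 proximal: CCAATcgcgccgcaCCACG
CALR: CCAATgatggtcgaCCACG
CANX: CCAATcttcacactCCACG
HYOU1 distal: ATTGGaCCACG
HYOU1 proximal: ATTGGaCCACG
SDF2L1: ATTGGtCCACG

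The CCACG end alone was found in 37.9% of promoters and in 7 of the 9 members, namely in the 6 with an ERSE or ERSE-II, which contain it, and in PDIA4. A UPRE core with the letters TGACGTGG was found in HYOU1, where it overlaps an ERSE-II, and in 0.795% of promoters. The ATF4 type element TGATGNAAT was found in 1.02% of promoters and in 0 of the 9 members. In whole promoters, given 5′ to 3′ in the direction of the gene, the ERSE stands in capitals. They are those of HSPA5 (chr9:125241294-125241593, minus strand), CALR (chr19:12938359-12938658, plus strand) and CANX (chr5:179698679-179698978, plus strand), which hold the same letters while their transcripts differed in response.
HSPA5 promoter: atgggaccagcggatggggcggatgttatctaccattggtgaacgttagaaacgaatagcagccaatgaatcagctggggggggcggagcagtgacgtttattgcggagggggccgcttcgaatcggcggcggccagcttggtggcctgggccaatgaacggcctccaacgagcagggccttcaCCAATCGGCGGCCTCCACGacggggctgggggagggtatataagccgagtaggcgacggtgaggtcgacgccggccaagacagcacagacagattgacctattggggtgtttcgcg
CALR promoter: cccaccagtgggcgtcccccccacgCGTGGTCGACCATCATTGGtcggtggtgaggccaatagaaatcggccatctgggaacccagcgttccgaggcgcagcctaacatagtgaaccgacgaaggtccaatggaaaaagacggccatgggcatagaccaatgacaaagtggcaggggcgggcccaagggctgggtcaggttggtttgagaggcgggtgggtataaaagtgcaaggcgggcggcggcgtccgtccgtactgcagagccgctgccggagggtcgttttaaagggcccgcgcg
CANX promoter: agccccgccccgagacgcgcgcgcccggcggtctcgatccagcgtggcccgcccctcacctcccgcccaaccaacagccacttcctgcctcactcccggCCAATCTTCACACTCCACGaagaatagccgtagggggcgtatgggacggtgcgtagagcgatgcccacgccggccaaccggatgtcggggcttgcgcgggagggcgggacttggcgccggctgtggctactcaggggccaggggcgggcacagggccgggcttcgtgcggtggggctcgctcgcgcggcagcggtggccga

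Whether the letters bear on the response of the members was not tested. Among the 4 with an ERSE, the log2 fold change was -0.79 for CALR, -0.36 for HSP90B1, -0.30 for HSPA5 and -0.07 for CANX. PDIA4, with the largest decrease, had neither ERSE nor ERSE-II in this window, nor had PDIA6 and P4HB, which says only that these letters are not there. The search read 1 promoter per gene, and other start sites were not searched. For PDIA6 (chr2:10832436-10832735, minus strand), CANX and HSP90B1 (chr12:103930160-103930459, plus strand) the whole window lay inside the gene. The annotated 5′ ends upstream of these windows are at 10837977, 179678628 and 103930107. Both ERSE copies of HSP90B1 are therefore inside the gene as annotated.

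**Figure D2:**
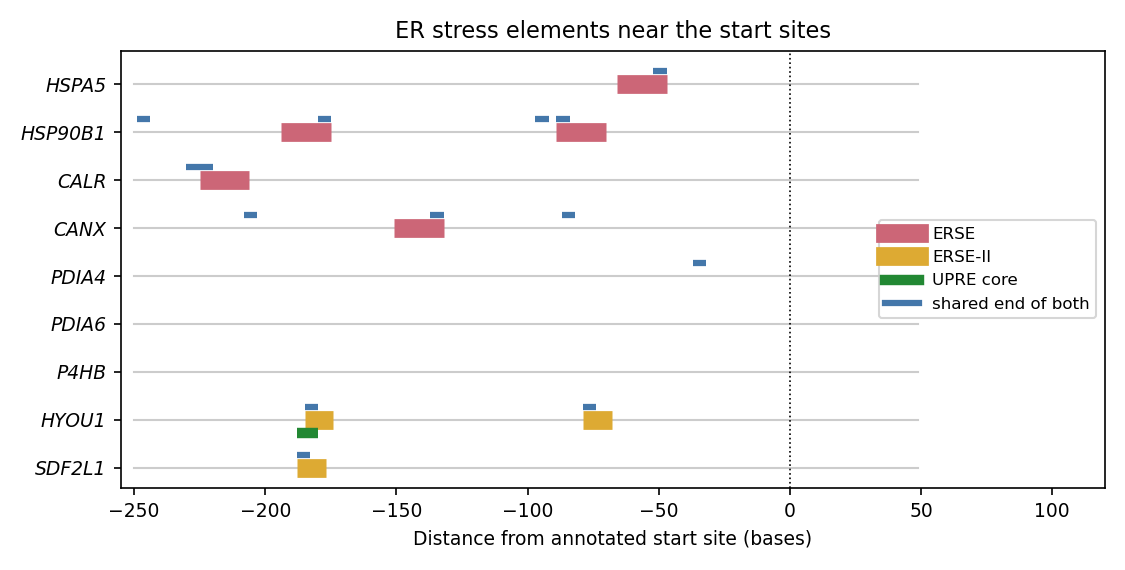
Places of ERSE, ERSE-II, the UPRE core and the end that ERSE and ERSE-II share in the promoters of 9 members, by distance from the annotated start site in bases (x axis). Each grey line is 1 promoter from 250 bases before to 50 bases after the start, marked by the dotted line. HSP90B1 holds an ERSE at each of 2 places and HYOU1 an ERSE-II at each of 2 places.

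The Hsp70 and Hsp90 chaperones of the ER and the exchange factor of the Hsp70 fell by similar amounts. HSPA5 encodes BiP, the ER Hsp70 that binds nascent chains and holds the stress sensors inactive (chromosome 9, 125234853 to 125241330, minus strand; all gene positions are on GRCh38 and cover exons, introns and untranslated regions). Its normalized counts were 13034, 13480 and 13293 with DMSO and 11045, 11138 and 10133 with anlotinib. The groups did not overlap, and the log2 fold change was -0.30 (95% interval -0.50 to -0.10, limma adjusted p = 0.0333). HSP90B1 encodes GRP94, the ER Hsp90 (chromosome 12, 103930107 to 103953645, plus strand). It had 10593, 10709 and 10625 with DMSO and 8707, 8203 and 7937 with anlotinib. All 3 anlotinib libraries were lower, with a log2 fold change of -0.36 (-0.55 to -0.17, adjusted p = 0.0111). C12orf73 overlaps it on the opposite strand but had a mean of only 125.7 normalized counts. HYOU1 encodes GRP170, a large Hsp70 relative that exchanges the nucleotide of BiP (chromosome 11, 119044189 to 119057202, minus strand). Its counts were 1659, 1868 and 1757 with DMSO and 1583, 1285 and 1236 with anlotinib, so that anlotinib replicate 1 stood just below the lowest DMSO library. The log2 fold change was -0.37 (-0.60 to -0.15, adjusted p = 0.0221).

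The direction was the same in each alternative run. The call of HSPA5 was lost when DMSO replicate 1, 2 or 3 or anlotinib replicate 2 was left out (limma adjusted p = 0.0888, 0.127, 0.13 and 0.103), and with no filter on low values (0.0645). That of HSP90B1 was lost on leaving out DMSO replicate 2 or 3 or anlotinib replicate 2 (0.0564, 0.0615 and 0.069), as was that of HYOU1 (0.102, 0.078 and 0.112).

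SDF2L1 encodes a small ER protein that works with BiP and its co-chaperones (chromosome 22, 21642261 to 21644298, plus strand). It had 538, 573 and 550 normalized counts with DMSO and 451, 333 and 307 with anlotinib. The groups were well apart, with a log2 fold change of -0.63 (95% interval -0.92 to -0.34, limma adjusted p = 0.00518). Its paralog SDF2 had a mean of 740 with DMSO and 739 with anlotinib, and its log2 fold change lay between -0.10 and 0.09 when single libraries were left out. The co-chaperone gene DNAJB11, whose product is found in complexes with SDF2L1, stood at 0.09 (adjusted p = 0.572).

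The lectin chaperones CALR and CANX, which bind the same trimmed sugar chains on folding glycoproteins, differed. CALR encodes calreticulin, the soluble one, which also stores calcium (chromosome 19, 12938578 to 12944489, plus strand). It had 10101, 11623 and 10431 normalized counts with DMSO and 7706, 6061 and 5080 with anlotinib. Every anlotinib library was well below the DMSO libraries, and the log2 fold change was -0.79 (95% interval -1.08 to -0.50, limma adjusted p = 0.0012). CANX encodes calnexin, the membrane-anchored one (chromosome 5, 179678628 to 179730925, plus strand). It had 14162, 15879 and 15743 with DMSO and 15475, 14367 and 13651 with anlotinib. These groups overlapped, and the log2 fold change was -0.07 (-0.29 to 0.15, adjusted p = 0.645). With scaling by library totals it was 0.00.

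Within each library, the log2 ratio of CALR to CANX normalized counts was -0.49, -0.45 and -0.59 with DMSO and -1.01, -1.24 and -1.43 with anlotinib. The groups did not overlap, and the ratio differed by -0.72 between their means. The exact two-sided permutation p was 0.1, the smallest that 3 against 3 libraries allow, and 0.125 after adjustment over the 5 pairs compared. No pair could therefore pass a threshold of 0.05.

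**Figure D3:**
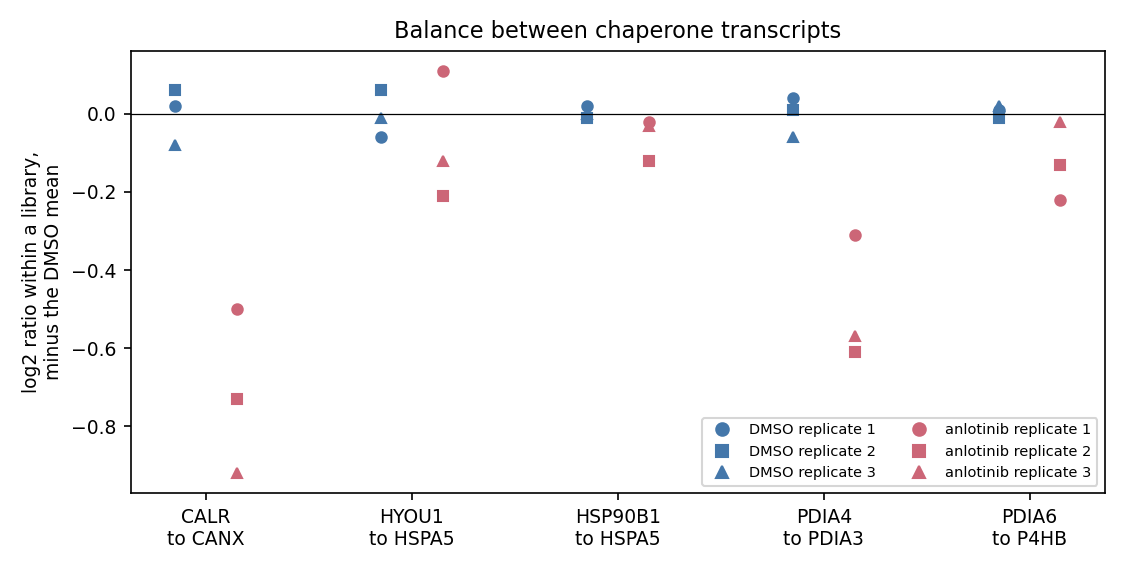
Log2 ratio of normalized counts within a library for 5 pairs of members, minus the mean of the DMSO libraries (y axis), with 1 point per library, 3 per group. The anlotinib libraries lie far below DMSO for CALR to CANX (mean difference -0.72) and PDIA4 to PDIA3 (-0.50), and overlap with DMSO for HYOU1 to HSPA5.

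The protein disulfide isomerases, which form and rearrange disulfide bonds, ranged from the largest decrease of the group to none that passed. PDIA4, also called ERp72 (chromosome 7, 149003062 to 149028641, minus strand), had 6213, 6519 and 6283 normalized counts with DMSO and 4506, 3496 and 3043 with anlotinib. The groups were far apart, with a log2 fold change of -0.80 (95% interval -1.07 to -0.53, limma adjusted p = 5.99e-04). PDIA6, also called P5 (chromosome 2, 10783391 to 10837977, minus strand), had 4106, 3965 and 4116 with DMSO and 3506, 3120 and 2861 with anlotinib. It was lower in all 3, at -0.37 (-0.57 to -0.17, adjusted p = 0.013). PDIA3, or ERp57, is the partner enzyme of calreticulin and calnexin (chromosome 15, 43746392 to 43773279, plus strand). It had 4179, 4493 and 4528 with DMSO and 3882, 3685 and 3135 with anlotinib. The groups did not overlap, though anlotinib replicate 1 was near DMSO replicate 1, and the change was -0.31 (-0.52 to -0.10, adjusted p = 0.0368). P4HB encodes the founding isomerase PDI, which is also the beta subunit of collagen prolyl 4-hydroxylase (chromosome 17, 81843159 to 81860694, minus strand). It had 11383, 11169 and 11357 with DMSO and 11425, 9543 and 8118 with anlotinib. Anlotinib replicate 1 was level with DMSO while the other anlotinib libraries were lower, and the change of -0.24 did not pass (-0.49 to 0.02, adjusted p = 0.175).

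The call of PDIA6 was lost when DMSO replicate 1 or 3 or anlotinib replicate 2 was left out (limma adjusted p = 0.0577, 0.0656 and 0.068). That of PDIA3 was lost on leaving out DMSO replicate 1, 2 or 3 or anlotinib replicate 2 or 3 (0.0728, 0.13, 0.143, 0.0971 and 0.0582) and with no filter (0.0572). P4HB passed only without anlotinib replicate 1, at -0.36 (0.00563). The pseudogene PDIA3P1 is 98% identical to PDIA3 over 1514 bases and had 4.52% to 6.04% of its counts in each library, so the counting may have split a small part of the reads of PDIA3.

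The log2 ratio of PDIA4 to PDIA3 was 0.57, 0.54 and 0.47 with DMSO and 0.22, -0.08 and -0.04 with anlotinib. The ratio of PDIA6 to P4HB differed by -0.13, that of HSP90B1 to HSPA5 by -0.06 and that of HYOU1 to HSPA5 by -0.07. The groups overlapped for the last pair alone (exact permutation p = 0.5), and the other pairs each had the smallest possible p of 0.1.

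Per length, the members were among the more abundant transcripts of A549 cells. As RPKM, the reads of a gene divided by its length and by the library total, the mean with DMSO was 260 for CALR, 223 for HSPA5, 161 for CANX, 149 for HSP90B1, 140 for P4HB and 127 for PDIA4. Then came PDIA3 at 68.3, PDIA6 at 65.2, SDF2L1 at 33.2 and HYOU1 at 15.1. The ranges of neighbouring members were apart in the DMSO libraries, except for those of PDIA3 and PDIA6. CALR had a higher RPKM than 99.4% of genes tested and HYOU1 a higher one than 81.3%. With anlotinib HSPA5 had the highest mean, at 191 ± 6.21 (SD, n = 3), although CALR stood above it in anlotinib replicate 1. P4HB at 126 ± 13 and HSP90B1 at 122 ± 3.9 changed places within their spread, and CANX at 161 ± 3.32 and CALR at 159 ± 22.9 could not be separated beyond their spread.

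**Figure D4:**
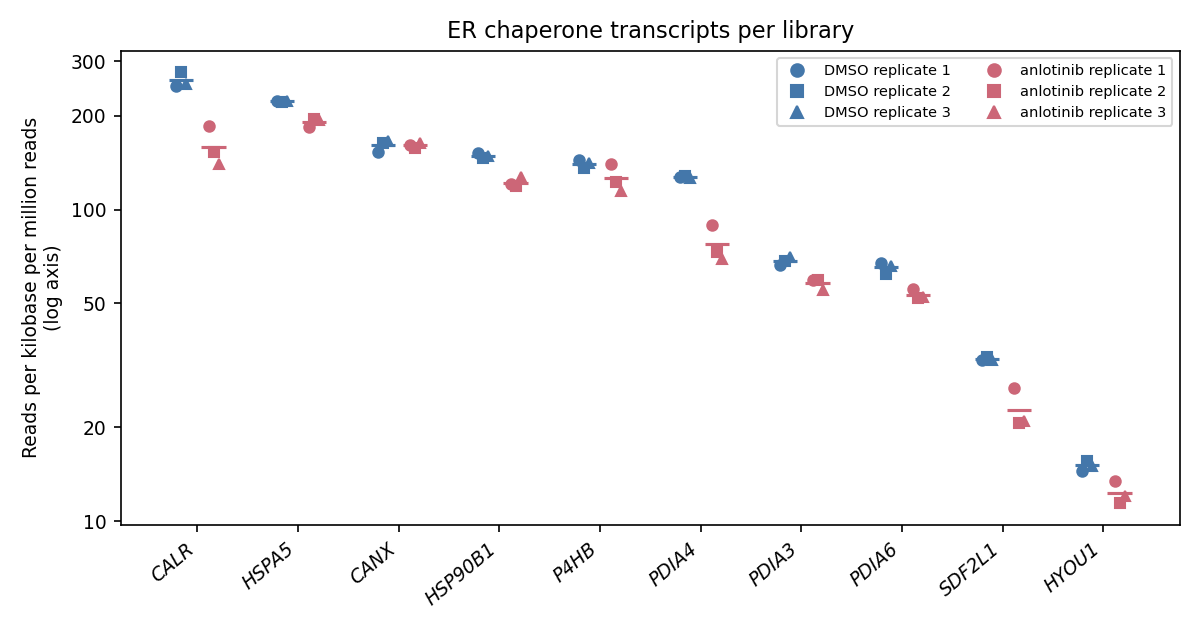
RPKM (reads over gene length and library total) of each member in each library (log axis), in the order of the DMSO mean. Short bars mark group means, and marker shapes give the replicate number, 3 libraries per group. CALR drops from 260 to 159 and PDIA4 from 127 to 77.3, while CANX stays at 161 in both groups.

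The 10 members together took 0.511%, 0.517% and 0.518% of all reads with DMSO and 0.444%, 0.419% and 0.416% with anlotinib. The groups did not overlap (exact two-sided permutation p = 0.1, the smallest possible). Of the drop in their summed normalized counts, CALR made up 26.7%, PDIA4 16%, HSPA5 15% and HSP90B1 14.2%. Replicates varied little with DMSO, with SDs of 0.564% to 7.47% of the mean, and more with anlotinib, at 4.72% to 21.1%. In normalized counts, anlotinib replicate 1 was the highest of the anlotinib libraries for 9 of 10 members and anlotinib replicate 3 the lowest for 10 of 10. That is also the library with the most genes detected. Its reads weighed less, at 0.887 normalized counts each, against 1.01 in anlotinib replicate 1. As RPKM, only CALR, PDIA4, P4HB and PDIA3 fell in order from anlotinib replicate 1 to 3. By that measure HSPA5 was lowest in anlotinib replicate 1 (184, 195 and 194 in replicates 1, 2 and 3). HSP90B1 was highest in anlotinib replicate 3 (121, 119 and 127). The mitochondrially encoded genes summed to 918627 to 1062594 normalized counts with DMSO and 924099 to 1257312 with anlotinib, and 0 of 13 passed with limma, with 0 at an unadjusted p under 0.05 and 1 passing with DESeq2. Without anlotinib replicate 3, 2 passed as higher. With scaling by library totals MT-ND1 and MT-ND6 passed as higher (limma adjusted p = 0.0091 and 0.016), where 2068 of all 15734 genes tested rose. Of clustered histone genes, listed as a sign of RNA quality or cell cycle state, 6 of 6 tested rose, where 10.5% of all genes tested rose. The sum over that list was 339 to 385 with DMSO and 849 to 1142 with anlotinib. The part of these differences between libraries in the chaperone result was not tested.

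Folding factors of the ER outside the 10 members were divided. Of 31 tested, 8 fell, 2 rose and 21 did not pass, with a median log2 fold change of -0.17. Of all genes tested 12.7% fell and 10.5% rose. The secreted ER stress proteins CRELD2 and MANF both fell by 0.73 (limma adjusted p = 0.00174 and 0.00306). CRELD2 went from 527 ± 61.3 to 319 ± 51.8 normalized counts, and MANF from 731 ± 98.9 to 442 ± 88.2 (SD, n = 3 per group). Those that rose were DNAJB9, a BiP co-chaperone known as a target of spliced XBP1, and HSPA13, an Hsp70 relative named after its value was seen, both by 0.55 (adjusted p = 0.00655 and 0.00343). The collagen chaperone gene SERPINH1 stood at -0.05 (adjusted p = 0.818). The number that fell was 2, 3 and 2 without DMSO replicate 2, DMSO replicate 3 and anlotinib replicate 2, and 14 without anlotinib replicate 1. In the same order, 7.6%, 7.78%, 7.04% and 20.4% of all genes tested fell in these settings. Of 20 further ER oxidoreductases tested, 2 fell and 1 rose, and 8 fell without anlotinib replicate 1. TMX1 was at -0.31 and ERP29, a redox-inactive relative, at 0.36 (adjusted p = 0.015 and 0.0352). PDIA5, named after its value was seen, was at -0.36 (adjusted p = 0.045). Each of these 3 calls was lost when a single library such as anlotinib replicate 2 was left out (0.062, 0.139 and 0.119). Scaling by library totals also ended those of TMX1 and PDIA5 (0.0634 and 0.094). That of PDIA5 was lost in 11 of the 18 alternatives, edgeR and DESeq2 among them (0.0502 and 0.0679).

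Among the subunits that P4HB joins to hydroxylate collagen, P4HA3 fell by 1.87 (limma adjusted p = 6.20e-05) and P4HA2 by 0.57 (adjusted p = 0.00985), while P4HA1 stood at -0.20 (adjusted p = 0.177). PPME1 overlaps P4HA3 on the opposite strand and was the more abundant of the pair, and the counts may mix reads of both, since no strand setting is stated. The call of P4HA2 was lost on leaving out DMSO replicate 2 or anlotinib replicate 2 (0.0589 and 0.0644). KDEL receptors return escaped ER chaperones from the Golgi. KDELR3 had 297, 311 and 301 normalized counts with DMSO and 209, 188 and 155 with anlotinib, a fall of 0.73 on the log2 scale (adjusted p = 0.00174). The more abundant KDELR1 and KDELR2 stood at -0.14 and -0.18 (adjusted p = 0.327 and 0.117).

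For the remaining machinery of the ER, counts are to be read against the 12.7% of all genes tested that fell and the 10.5% that rose. Of 22 genes of ER-associated degradation tested, 0 fell and 1 rose, with a median of -0.02. It was HERPUD1, a membrane protein of the degradation complex, at 0.28 (limma adjusted p = 0.0323), a call lost on leaving out DMSO replicate 1, 2 or 3 or anlotinib replicate 2 (0.104, 0.114, 0.091 and 0.172) and with no filter (0.0567). Of 20 translocation genes 2 fell, TRAM1, a protein beside the Sec61 channel, by 0.92 and SPCS3, a signal peptidase subunit, by 0.42 (adjusted p = 1.00e-04 and 0.00405). Of 14 enzymes of N-glycosylation 2 fell, MOGS, the glucosidase that makes the first cut before calnexin and calreticulin can bind, at -0.40 and RPN1, an oligosaccharyltransferase subunit, at -0.38. Both calls were lost without anlotinib replicate 2, among others (adjusted p = 0.103 and 0.102). In the list of ER exit and retrieval, KDELR3 was the 1 gene of 24 that fell, and SEC31A of the COPII coat rose by 0.27, a call lost without anlotinib replicate 2, among other libraries, and with no filter (adjusted p = 0.162 and 0.0619). Of 9 calcium handling genes 0 passed with limma, with 3 at an unadjusted p under 0.05, ITPR1, ITPR2 and ORAI1, the last named after its value was seen. ITPR1, a calcium release channel, passed with DESeq2 (adjusted p = 0.0485). Without anlotinib replicate 1 the numbers that fell were 4 for degradation, 4 for translocation, 6 for N-glycosylation, 5 for exit and retrieval and 4 for calcium handling, and those that rose were 3, 2, 0, 3 and 1. These are to be read against that setting, in which 20.4% of all 15763 genes tested fell and 2271 genes rose.

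Of 19 sensors and transcription factors of the unfolded protein response tested, 5 rose and 3 fell, with a median of 0.10, where 10.5% of all genes tested rose and 12.7% fell. ERN1, the sensor IRE1, had 306, 339 and 334 normalized counts with DMSO and 503, 492 and 540 with anlotinib, a rise of 0.65 (limma adjusted p = 6.10e-04). The other sensors EIF2AK3 and ATF6 stood at -0.19 and -0.07, and XBP1 at 0.14 (adjusted p = 0.233, 0.669 and 0.364). The counts are per gene and do not separate spliced from unspliced XBP1. ATF4 rose by 0.66, DDIT3 by 1.85, and PPP1R15A, which reverses the translational block of PERK, by 1.33 (adjusted p = 0.00113, 5.16e-06 and 8.81e-06). DDIT3 shares 982 bases with the more abundant gene MARS on the opposite strand. PPP1R15B, a relative of PPP1R15A, rose by 0.43. Those that fell were CREB3L2, a relative of ATF6, TRAF2, an adaptor of IRE1, and NFYA, a subunit of the factor that binds the CCAAT part of an ERSE, at -0.54, -0.33 and -0.39. These 3 and PPP1R15B were named after their values were seen. The calls of TRAF2 and NFYA were lost without anlotinib replicate 2 (adjusted p = 0.128 and 0.0673), and that of NFYA with library totals (0.0517).

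Targets of ATF4 and CHOP numbered 21 in the same libraries, of which 16 rose and 0 fell, with a median of 0.71, where 10.5% of all genes tested rose. This list was known from earlier results of these data to hold rising genes, so its count and median are not independent of them. NUPR1, a small stress protein, rose by 2.17 and the pseudokinase gene TRIB3 by 1.62 (limma adjusted p = 9.63e-07 and 3.76e-07). Chaperones of the cytosol and mitochondria, relatives of HSPA5 and HSP90B1, showed 1 fall among 13, the mitochondrial Hsp90 TRAP1 at -0.42 (adjusted p = 0.0215), lost without anlotinib replicate 2 (0.105). The median of that list was -0.00, and 12.7% of all genes tested fell. These lists are described by their counts and medians, and no difference between lists was tested.

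**Figure D5:**
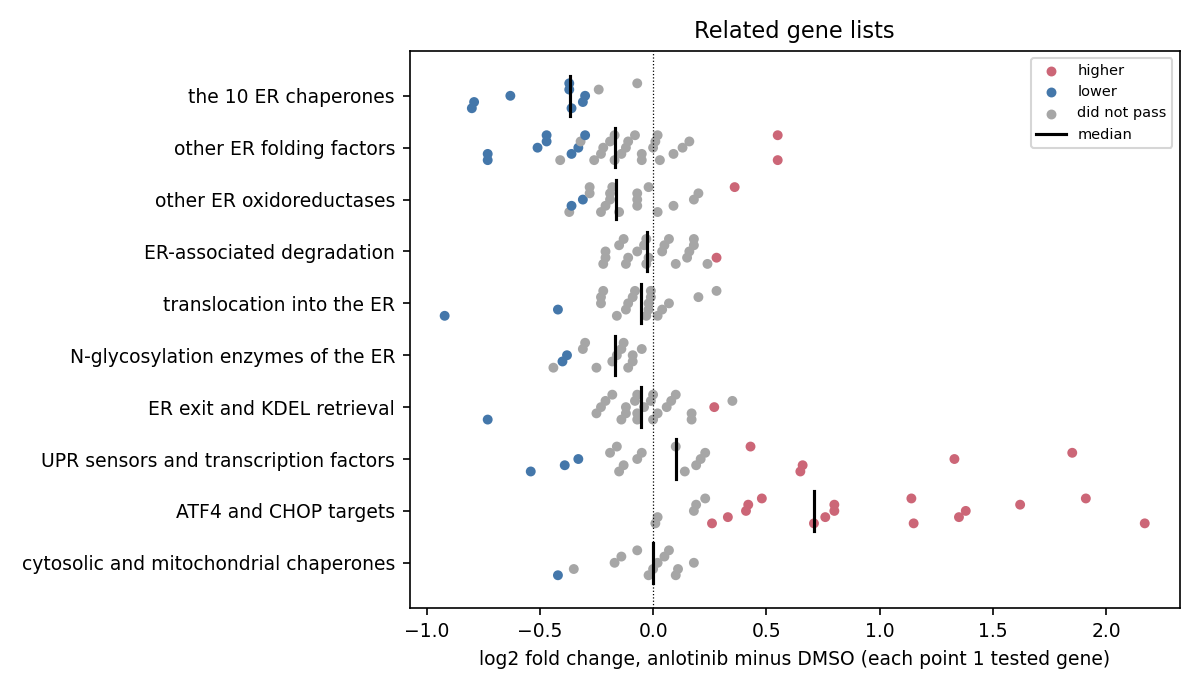
Log2 fold change of anlotinib against DMSO (x axis) for every tested gene of the 10 ER chaperones and of 9 related lists, 1 point per gene, with the list's median as a black bar. Red points passed as higher, blue as lower, and grey did not pass with limma. The chaperones lie to the left, with a median of -0.36, and the targets of ATF4 and CHOP to the right, with a median of 0.71. The list of these targets was known beforehand to hold rising genes.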

How the data were processed

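The authors deposited 1 table of all 6 libraries and 5 files that repeat single libraries with identical values. The deposited expression values are a signal, namely counts divided by 1 size factor per library. In all libraries 100% of values were whole multiples of 1 step to within 1e-06, so whole reads were recovered. The same table deposited by the authors holds their log2 fold change, p-value and adjusted p, in which 8 members were lower (5.83% of its genes were). Their processing notes give mm9, a mouse build, but all 30483 gene positions equal GENCODE release 29 on GRCh38. Aligner, counter and strandedness: not given in the sources used here. Per the labels, a SMARTer mRNA kit was used.

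Genes were tested with limma-trend, on a log2 scale after adding 1 to each normalized count and with no covariate, for those with a mean of at least 10 over the 6 libraries, with Benjamini-Hochberg adjustment at 0.05 over all genes tested. Fold changes are on that scale. edgeR, DESeq2 and limma-voom on recovered reads (edgeR called 3722 genes), scaling, filters, pseudocounts, a block and leaving out each library were alternatives. Replicates differed by more than sampling noise (chi-square per degree of freedom 3.75 to 20.4). The procedure was tested on simulated data. The members and the 16 gene lists (252 symbols, 249 matched) were chosen with earlier results of these data known. Genes were named by rule: all members, from each list the 2 genes of lowest p, and a fixed set; genes of related lists outside it are marked, cell type markers aside, and not every gene it names is described. RPKM used the deposited gene lengths. Similar transcripts were sought with BLAST (at least 90% identity over 200 bases). Protein sequences were not analysed here. Versions were BLAST 2.17.0, DESeq2 1.42.0, limma 3.58.1, R 4.3.3, edgeR 4.0.16, Python 3.11.15, numpy 2.4.6, pandas 2.3.3, scipy 1.17.1 and matplotlib 3.10.9.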

Additional observations from a re-analysis of the deposited data

How the results depend on the processing

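PDIA4, CALR and SDF2L1 passed in all 18 alternatives, and the number of members that rose was 0 in each. With edgeR, DESeq2 and limma-voom 8 members fell (11.8%, 11.6% and 12.1% of genes fell with these tools). The number was also 8 with each scaling, where 9.86% of genes fell with library totals and 13.4% with TMM scaling. CANX turned to 0.00 with library totals. That scaling raised the median of all genes by 0.07, and the share of calls that were higher from 45.1% to 57.1%. With no filter, HSPA5 and PDIA3 no longer passed (-0.30 and -0.31). Leaving out single libraries gave 1972 to 5487 changed genes, 1105 to 3216 lower and 867 to 2271 higher. The number of members lower was then 3 to 9. The log2 fold change was -0.33 to -0.26 for HSPA5, -0.40 to -0.33 for HSP90B1, -0.37 to -0.22 for PDIA3, -0.44 to -0.30 for PDIA6, -0.48 to -0.30 for HYOU1 and -0.36 to -0.11 for P4HB. Fewer libraries were tested there, and the cause was not tested further.

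Same-numbered libraries did not deviate together (r = -0.041, 0.026 and -0.003 across genes), so the numbers give no pairing. With a replicate block 6 members passed as lower, and HSPA5 (-0.30) and PDIA3 (-0.31) did not, while 3552 genes changed.

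Genes that did not pass changed sign as follows. SDF2 was 0.07 with library totals, 0.05 with the upper quartile, 0.02 with edgeR, 0.01 with DESeq2 and 0.02 with limma-voom, and -0.10 to 0.09 without single libraries. SERPINH1 was 0.02 with library totals and -0.23 to 0.10 without single libraries, ATF6 was 0.01 with library totals, and RBFOX3 was -0.05 to 0.23 without single libraries.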

Other observations

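The promoters with the full ERSE letters belonged to 14 tested genes, a set assembled after the values of the members were seen. Of these, 4 fell and 0 rose: CALR, CRELD2, HSP90B1 and HSPA5, where 12.7% of all genes tested fell. The set includes 4 of the members, which are counted again here, and outside them CRELD2 alone fell. The median log2 fold change was -0.07, against -0.02 over all genes tested. XBP1, which holds an ERSE itself, stood at 0.14, SERP1, a stress-associated ER protein, at -0.02 and FICD, the enzyme that modifies BiP, at 0.11 (limma adjusted p = 0.364, 0.868 and 0.72). Of 11 tested genes with ERSE-II, 6 fell and 1 rose, with a median of -0.31, where 12.7% of all genes tested fell and 10.5% rose. The members SDF2L1 and HYOU1, again counted here, fell, whereas HERPUD1, with the same letters, rose by 0.28 (adjusted p = 0.0323). The others that fell were RAD9A, SHCBP1, GYS1 and PLS3, at -0.76, -0.74, -0.43 and -0.31. No test was made on either set.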
